A study of Mus musculus with 2 samples.

Results

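The genes described here encode 8 proteins of the acute phase response: the serum amyloid A genes Saa1, Saa2 and Saa3, haptoglobin (Hp), hemopexin (Hpx), the orosomucoids Orm1 and Orm2, and the serine protease inhibitor Serpina3n. They were chosen by name, and all 8 were listed both among the 20468 genes of the normal liver and among the 20473 genes of the fibrotic liver. Both libraries hold liver non-parenchymal cells (NPCs) of 1 male C57BL/6 mouse each, 8 weeks old, injected i.p. 2 times a week for 6 weeks. The fibrotic mouse received CCl4, a hepatotoxin that injures the hepatocytes around the central vein, in olive oil, and the normal mouse, whose library is labelled Q for the quiescent state, received olive oil. The conditions have a single library each, so they were compared without a test: mouse, injection and library cannot be told apart, and every interval given below is a 95% interval that covers counting error alone.

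The acute phase response is the change in plasma proteins that follows infection or tissue injury. Interleukin-6 signals through STAT3, and interleukin-1 and tumour necrosis factor signal through NF-kB and C/EBP factors, and together they raise transcription of these genes in hepatocytes. Saa1 and Saa2 are the circulating serum amyloid A proteins, which travel on high-density lipoprotein, whereas Saa3 is known as the serum amyloid A of mouse macrophages, adipocytes and other cells outside the hepatocyte. Haptoglobin binds free haemoglobin, hemopexin binds free heme, the orosomucoids carry small lipophilic molecules, and Serpina3n inhibits proteases of granulocytes and lymphocytes. Hepatocytes were removed by low-speed centrifugation before the cells were loaded, so the main source of most of these transcripts was present only as a remnant, together with the RNA that broken hepatocytes release into the suspension.

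The normal library held 8130 cell barcodes and 44062632 unique molecular identifiers (UMIs, each counting 1 captured transcript), and the fibrotic library held 6437 barcodes and 53288463 UMIs. After removal of cells with over 10% mitochondrial UMIs, 7471 and 6132 cells were kept. The libraries shared 15 barcodes, 0.185% of the normal and 0.233% of the fibrotic ones. Cells were clustered without the 8 genes and named from marker genes. The hepatocyte-like droplets numbered 138 in the normal liver (median 6769 UMIs) and 149 in the fibrotic liver (median 2034 UMIs), and in both libraries 16 of 16 hepatocyte markers were over 2 times their level in lymphoid cells. The mesothelial-like cells, which carry the markers of the epithelium that covers the liver surface, numbered 45 and 78, and 12 of 12 of their markers passed the same comparison in both livers. The portal fibroblast-like (PF-like) cells numbered 44 and 79, with 12 and 11 of 14 markers over that limit, and the neutrophil-like cells numbered 191 and 211, with 12 of 12 in both. B and NK/T cells, together 1618 normal and 825 fibrotic lymphoid cells with median depths of 3209 and 2573 UMIs, should lack these transcripts, and their level is given as the free RNA background. All levels are UMIs of a gene per 10000 UMIs of the named cells, and levels were not compared between genes.

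Saa3, Saa1 and Saa2 lie within 1 gene cluster, at chr7:46711998-46715700 (minus strand), chr7:46740497-46742980 (minus strand) and chr7:46751790-46754313 (plus strand) of the mouse build mm10 (GRCm38). Hpx is at chr7:105591613-105600137 (minus strand), Hp at chr8:109575128-109579172 (minus strand), Orm1 at chr4:63344560-63348163 and Orm2 at chr4:63362449-63365878 (both plus strand), and Serpina3n at chr12:104406729-104414329 (plus strand). Promoter sequences of 6 of the 8 genes were matched in RefSeq (GRCm38.p6). The 250 bases before the RefSeq start site of the genes on which the results turn are printed here, 5′ to 3′ along the gene. They set the serum amyloid A genes side by side with the gene that stood out in fibroblasts. For Saa2, Saa3 and Serpina3n this start site differs from the gene bounds given above, and the distances below are counted from it. Capitals mark matches, on either strand, to the letters TTNNGNAA (C/EBP), GGG and CC with any 5 bases between them (NF-kB) and TTCNNNGAA (STAT), and matches that abut or overlap form 1 run of capitals.
Saa3, chr7:46715677-46715926, minus strand: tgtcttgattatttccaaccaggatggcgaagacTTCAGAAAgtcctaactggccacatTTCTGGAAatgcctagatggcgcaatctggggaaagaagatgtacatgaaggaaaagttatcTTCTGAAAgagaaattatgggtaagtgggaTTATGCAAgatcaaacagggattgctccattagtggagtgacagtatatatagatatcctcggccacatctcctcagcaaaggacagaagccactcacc
Saa1, chr7:46742981-46743230, minus strand: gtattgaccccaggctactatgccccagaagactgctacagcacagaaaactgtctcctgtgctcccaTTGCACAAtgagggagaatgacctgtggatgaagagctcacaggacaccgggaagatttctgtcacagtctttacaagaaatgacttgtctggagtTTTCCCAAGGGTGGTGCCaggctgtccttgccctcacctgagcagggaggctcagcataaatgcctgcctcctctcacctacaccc
Saa2, chr7:46751583-46751832, plus strand: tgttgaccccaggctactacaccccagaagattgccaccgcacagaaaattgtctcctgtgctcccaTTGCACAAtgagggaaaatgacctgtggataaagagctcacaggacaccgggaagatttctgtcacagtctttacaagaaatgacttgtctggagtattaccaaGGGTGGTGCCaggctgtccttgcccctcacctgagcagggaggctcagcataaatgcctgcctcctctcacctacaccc
Serpina3n, chr12:104406458-104406707, plus strand: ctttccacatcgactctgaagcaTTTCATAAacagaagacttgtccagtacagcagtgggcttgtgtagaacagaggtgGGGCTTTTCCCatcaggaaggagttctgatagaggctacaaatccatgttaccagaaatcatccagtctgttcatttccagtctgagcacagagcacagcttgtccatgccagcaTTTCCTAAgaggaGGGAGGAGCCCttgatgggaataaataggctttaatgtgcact

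A C/EBP match was present in 6 of 6 promoters, against 36.8% of 32851 RefSeq promoters of the same length, and an NF-kB match in 3 (Saa1, Saa2 and Serpina3n), against 45.8%. The STAT letters were in 0 of 6, against 7.02%. Saa3 held 4 C/EBP matches and 0 NF-kB matches in this window. In Saa1 a C/EBP match, 86 to 79 bases before the start, abutted an NF-kB match at 78 to 69 bases, and Saa2 kept the NF-kB letters at 79 to 70 bases but not the C/EBP letters beside them. Serpina3n held NF-kB matches on both strands around 171 to 161 bases and again around 43 to 33 bases. These matches describe letters and not bound sites.

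**Figure D1:**
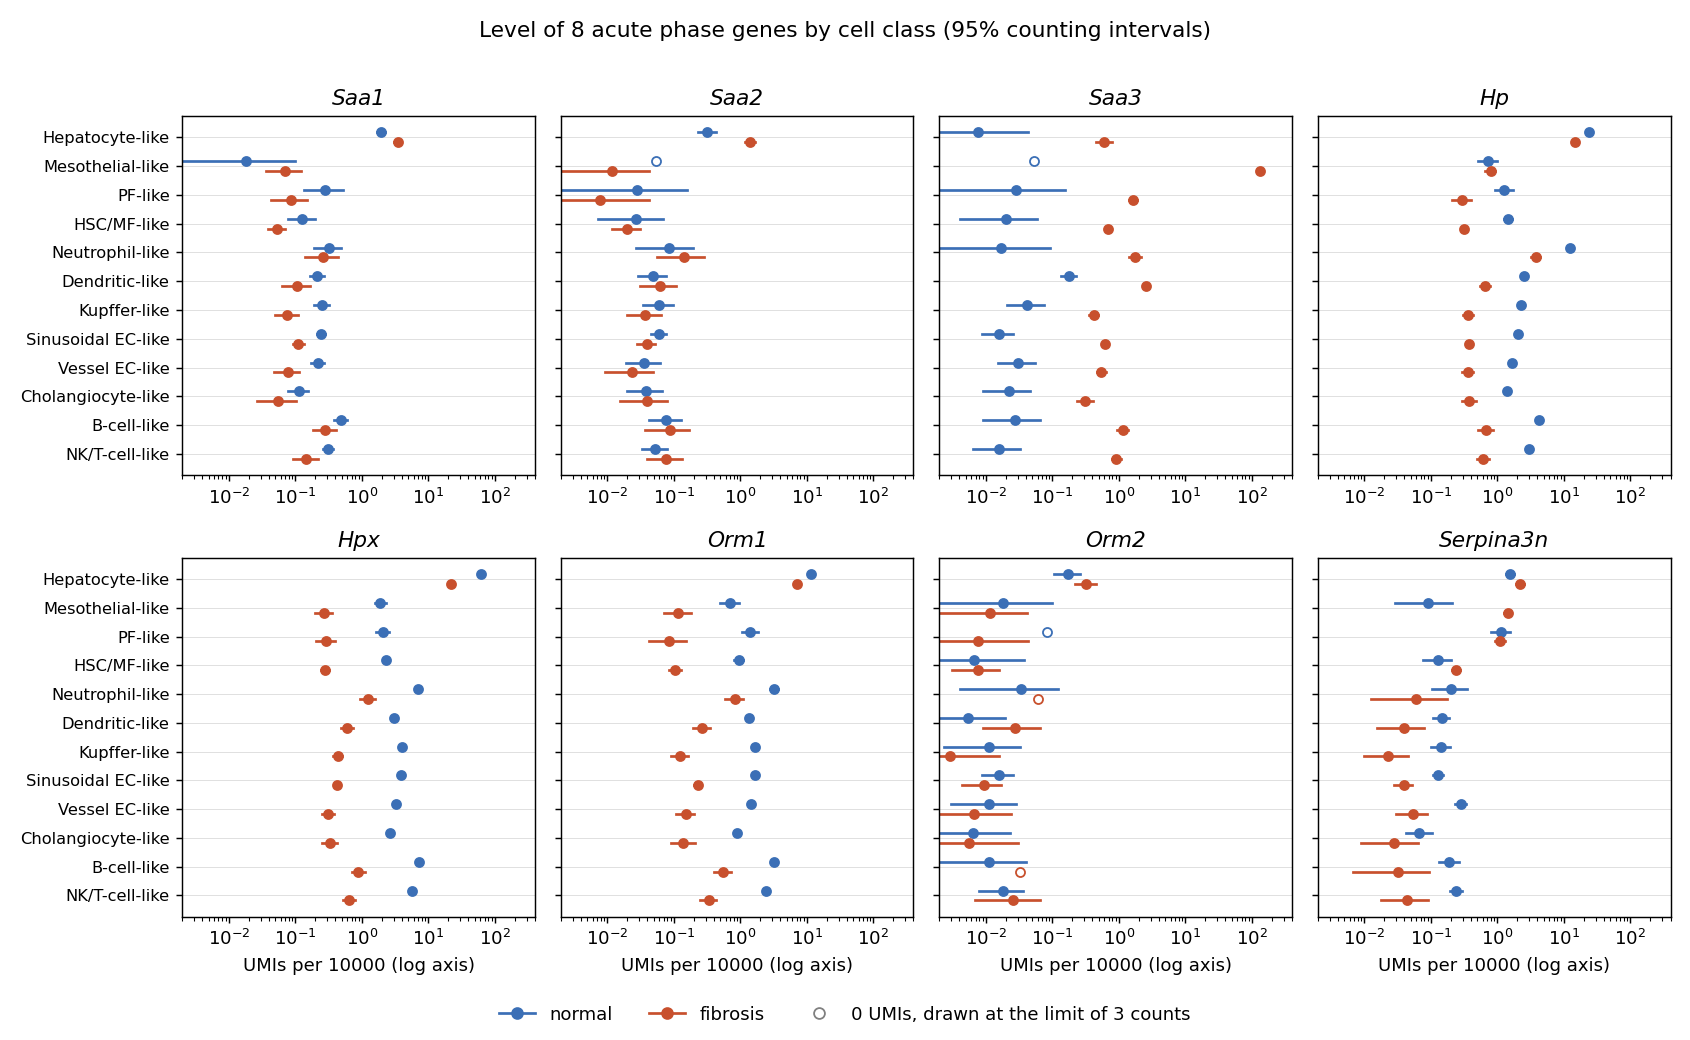
Level of each of the 8 genes (UMIs per 10000, log axis) in the named cells of the normal and fibrotic livers, 1 panel per gene, with 95% counting intervals; open circles are cells with 0 UMIs, drawn at the limit that a count of 0 allows. The Saa3 panel has its highest point in fibrotic mesothelial-like cells at 133.7, where the normal cells have 0 UMIs, and the Hp, Hpx and Orm1 panels have theirs in hepatocyte-like droplets.

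Saa3 stood apart from the other 7 genes. In the normal liver Saa3 was nearly absent, with 141 UMIs over all kept cells, and in the fibrotic liver there were 30234, of which 76.2% were in the 78 mesothelial-like cells. The level in these cells was 133.7 (132.0 to 135.5) in the fibrotic liver, with a UMI in 78 of 78 cells. In the normal liver 0 of 45 mesothelial-like cells had a Saa3 UMI, which allows a share of cells with a captured UMI of up to 6.67% and a level of up to 0.054. The fibrotic level was therefore at least 2495-fold higher than the limit that 3 counts set over the normal cells. Per cell, the fibrotic level ran from 0.231 through a median of 89.3 to 778, so the mesothelial-like cells were high as a group but differed widely among themselves. After thinning each cell to 1000 UMIs, Saa3 was seen in 88.2% (78.7 to 94.4) of fibrotic mesothelial-like cells and in 10.8% (8.79 to 13.2) of lymphoid cells.

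The fibrotic mesothelial-like cells came from 2 sub-clusters, and Saa3 was high in both. The first, 48 cells with a median depth of 16072.5 UMIs, had a Saa3 level of 200.2 (197.3 to 203.2) and a summed mesothelial marker level of 158.5. The second, 30 cells with a median depth of 30807.5 UMIs, had a Saa3 level of 65.1 (63.4 to 66.8) and a marker level of 23.2. That second sub-cluster is the less certain one: it was led by Clca3a2, Cxcl5 (a chemokine that attracts neutrophils) and Fndc1, and none of the fixed mesothelial markers was among its 10 leading genes, although 12 of 12 were over 2 times the lymphoid level. Portal fibroblast markers passed that limit for 9 of 14 in both sub-clusters, with summed levels of 13.4 in the first and 14.3 in the second. Normal mesothelial-like cells had a mesothelial marker level of 327 and lymphoid cells 0.516 and 0.677. With the second sub-cluster left out, the Saa3 level in the first was at least 3736-fold above the normal limit, and the second alone was at least 1215-fold above it.

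**Figure D2:**
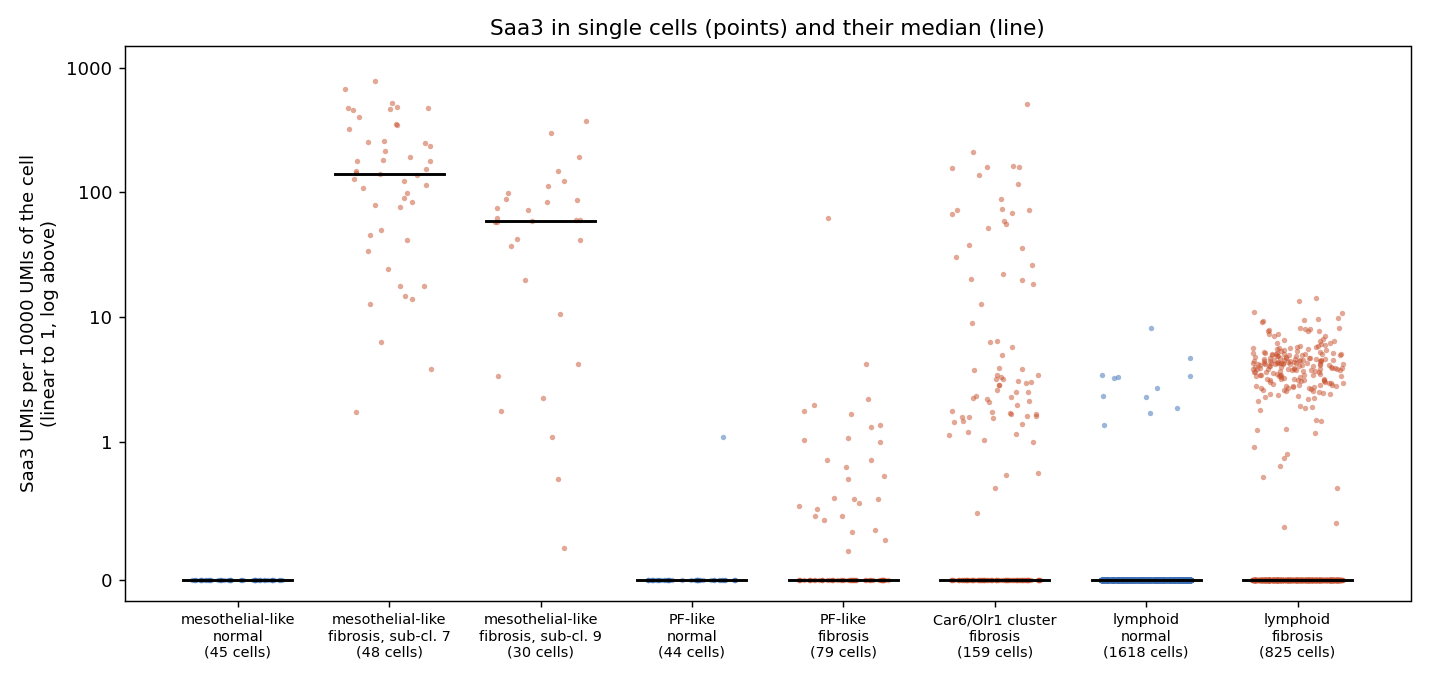
Saa3 level of each cell (UMIs per 10000, axis linear up to 1 and logarithmic above), grouped by cell name, sub-cluster and condition, with 1 point per cell. The fibrotic mesothelial-like cells of both sub-clusters form a band with medians of 141 and 59.4, single high cells appear among PF-like cells, and a separate set of high cells appears in the cluster led by Car6 and Olr1.

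Outside the mesothelial-like cells, 42 of 6054 fibrotic cells (0.694%) had 10 or more Saa3 UMIs, and they held 61.8% of the 7204 Saa3 UMIs found there. The other 38.2% were spread thinly, and 34.4% of these 6054 cells had at least 1 Saa3 UMI. Over the whole fibrotic liver 112 of 6132 cells (1.83%) reached 10 UMIs, and the level over the remaining cells was 0.567. In the normal liver 2 of 7471 cells reached 10 UMIs, both of them dendritic-like. The largest set besides the mesothelium was a cluster of 159 fibrotic cells whose leading genes included Car6, a secreted carbonic anhydrase, and Olr1, a scavenger receptor, and in which monocyte and macrophage markers were raised. Its Saa3 level was 22.5, or 8.59% of all Saa3 UMIs, but 26 of its cells (16.4%, 11 to 23.0) held 96.7% of them, and the other cells of the cluster stood at 0.983, close to the lymphoid 1.0 (0.880 to 1.13).

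The Saa3-rich cells of the Olr1 cluster differed from mesothelial-like cells in their markers. Their summed mesothelial marker level was 39.1, against 3.21 in the rest of the cluster, and nearly all of it was Slpi, a secreted inhibitor of leukocyte elastase. With Slpi left out it was 0.207, against 0.532 in the rest of the cluster and 62.3 in the Saa3-rich mesothelial-like cells. A marker UMI other than Slpi was found in 6 of the 26 cells and in 35 of the other 133 (26.3%). By this measure Saa3 and Slpi were shared between the Saa3-rich cells of the cluster and the mesothelium, and the remaining mesothelial markers were not.

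In fibroblasts the Saa3 counts rested on a single cell. The 79 fibrotic PF-like cells had 209 Saa3 UMIs, a level of 1.61, against 1 UMI (0.028) in the 44 normal ones. Of the 209, 172 (82.3%) were in 1 cell, which also held 211 mesothelial marker UMIs, 133 of them Slpi. The level in the remaining PF-like cells was 0.292, below the lymphoid 1.0. Hepatic stellate cells and myofibroblasts (HSC/MF), taken as the whole cluster of 402 fibrotic cells, had a level of 0.690, but 305 of their 628 UMIs were in 1 cell, whose 257 mesothelial marker UMIs were Slpi in all but 1. Without the 2 cells of this cluster with 10 or more Saa3 UMIs its level was 0.320. The dendritic-like cells showed the same concentration, with 357 of 463 UMIs in 1 cell whose 83 mesothelial marker UMIs were all Slpi, and the level in their other cells was 0.597. A fibrotic cell outside the PF-like, mesothelial-like and HSC/MF cells described here held 544 Saa3 UMIs and 351 mesothelial marker UMIs, 224 of them Slpi. It lay in a mesenchymal sub-cluster of 38 cells.

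The free RNA background of Saa3 differed between the livers too. In lymphoid cells it was 0.019 (0.010 to 0.034) in the normal and 1.0 (0.880 to 1.13) in the fibrotic liver, a ratio of 51.6 (29.0 to 101), with a UMI in 0.742% and 25.8% of cells. Sinusoidal endothelial-like cells moved from 0.016 to 0.614 and Kupffer-like cells from 0.041 to 0.416. Hepatocyte-like droplets had 1 Saa3 UMI (0.008) in the normal and 59 (0.604) in the fibrotic liver. Those 59 UMIs stood below the lymphoid level of the same library, so a hepatocyte level of Saa3 above background was not detectable in either liver.

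Saa1 and Saa2, the circulating serum amyloids, had their highest level in the hepatocyte-like droplets, although most of their UMIs lay in the many other cells: the droplets held 20.5% of the normal and 39.2% of the fibrotic Saa1 UMIs. The Saa1 level there was 1.95 (1.71 to 2.20; 251 UMIs) in the normal and 3.45 (3.09 to 3.84; 337 UMIs) in the fibrotic liver, a ratio of 1.77 (1.5 to 2.10). Saa2 went from 0.318 (41 UMIs) to 1.39 (136 UMIs), a ratio of 4.38 (3.07 to 6.37). The median ratio of the 1987 genes compared in these droplets was 1.79, and the Saa1 ratio of 1.77 became 3.02 with a 5% mitochondrial limit and 2.52 with no limit. The droplets were uneven: the median droplet had 0 UMIs of either gene in both livers, and the 3 droplets with most Saa1 UMIs held 60 of the 251 normal and 117 of the 337 fibrotic ones. After thinning to 1000 UMIs, Saa1 was seen in 8.70% (4.57 to 14.7) of normal and 22.2% (15.5 to 30.2) of fibrotic hepatocyte-like droplets, and in 4.52% and 2.43% of lymphoid cells. The 3′ ends of Saa1 and Saa2 transcripts were 92.4% identical over the last 300 bases, with a shared run of 99 bases, so unique mapping can lose or misplace reads of either gene, and their split is uncertain.

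Hpx, Hp and Orm1 were lower per total UMI in the fibrotic hepatocyte-like droplets, while Orm2 and Serpina3n were not. All 5 are read against the median gene ratio of 1.79. Hpx went from 61.6 (60.3 to 63.0) to 22.1 (21.1 to 23.0), a ratio of 0.358 (0.341 to 0.376), and its median over droplets from 40.3 to 7.65. Hp went from 24.0 (23.2 to 24.9) to 14.6 (13.9 to 15.4), a ratio of 0.608 (0.570 to 0.647) that turned to 1.07 with no mitochondrial limit. After thinning it was seen in 77.5% (69.7 to 84.2) of normal and 42.2% (33.8 to 51.0) of fibrotic droplets, with 32.7% and 6.33% of lymphoid cells (unthinned, 136 of 138 and 88 of 149 droplets). Orm1 went from 11.7 to 7.07, a ratio of 0.605 (0.552 to 0.663). These 3 genes had their highest levels here, and their medians over droplets were lower in the fibrotic liver as well. Orm2 had few counts, 22 and 31 UMIs, with a ratio of 1.86 (1.04 to 3.37), and Orm1 and Orm2 were 97.7% identical over their last 300 bases. Serpina3n went from 1.54 (199 UMIs) to 2.16 (211 UMIs), a ratio of 1.40 (1.15 to 1.71), but the share of droplets with a UMI after thinning was 14.5% and 11.1% (2.66% and 0.365% of lymphoid cells), and 84 of the 211 fibrotic UMIs were in 3 droplets. As a mean number of UMIs per droplet the ratio was 0.982, so no direction was read for Serpina3n. At a level of 1 or more in either liver, 6 of the 8 genes could be compared; 1 (Saa2, which reached that level in the fibrotic liver only) was 2-fold or more higher, against 44.5% of 1987 genes, and 1 (Hpx) was 2-fold or more lower, against 14.3%. With no mitochondrial limit the Hpx ratio was 0.633, which is not 2-fold lower. A further 826 normal droplets, with a median of 1371.5 UMIs, were led by hepatocyte genes but stayed unnamed, since clusters this shallow were named only with a marker among their 10 leading genes. Hpx was at 14.9 there and Saa1 at 0.627. With these droplets added to the normal ones, an alternative chosen after the data were seen, the ratio was 0.596 (0.569 to 0.624) for Hpx, which ends its 2-fold call, 0.946 (0.890 to 1.01) for Hp, 2.76 (2.36 to 3.21) for Saa1, 5.75 (4.25 to 7.83) for Saa2 and 2.15 (1.79 to 2.58) for Serpina3n, and the median over 2020 genes was 1.40. Of the same 6 genes 3 (Saa1, Saa2 and Serpina3n) were then 2-fold or more higher, against 24.4% of genes, and 0 were 2-fold or more lower, against 11.4%.

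The hepatocyte-like droplets of the fibrotic liver held less hepatocyte RNA per UMI altogether. The summed level of 13 hepatocyte genes that are not acute phase genes, among them apolipoproteins, Fabp1 and Cyp2e1, was 624 in normal and 347 in fibrotic hepatocyte-like droplets, and that of albumin (Alb) was 931 and 224. Counted per UMI of the 13 genes, the fibrosis over normal ratio was 3.19 for Saa1, 7.87 for Saa2, 3.34 for Orm2, 2.52 for Serpina3n, 1.09 for both Hp and Orm1, and 0.644 for Hpx. The side of 1 for Hp and Orm1 rested on the reference gene Mup3, a major urinary protein: without Mup3 the ratios were 0.776 and 0.774, and Saa1 was at 2.26, Saa2 at 5.59 and Hpx at 0.458. With the 826 shallow normal droplets added, and all 13 genes, they were 3.91 for Saa1, 1.34 for Hp, 1.14 for Orm1 and 0.845 for Hpx. Counted per UMI of Alb, itself a protein that falls in the acute phase, it was 7.36 for Saa1, 18.2 for Saa2, 2.52 for Hp, 2.51 for Orm1 and 1.49 for Hpx. A change of scale multiplies the ratio of every gene by the same factor, 1.80 for the 13 genes and 4.15 for Alb, so which genes pass 1 follows from their ratio per total UMI, and the order of the genes stays as it was. In that order Saa2 and Saa1 stood above Hp and Orm1, and Hpx stood lowest. The difference in depth between the 2 sets of droplets moved with all of these values, and its part in them was not tested.

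**Figure D3:**
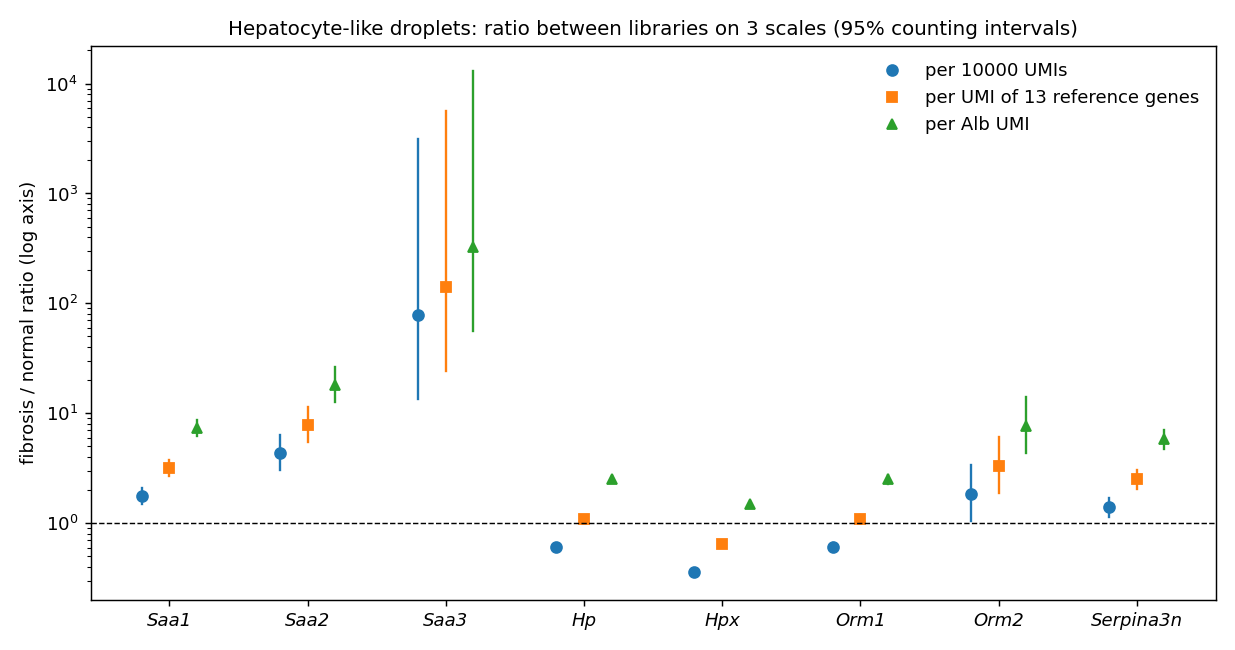
Fibrosis over normal ratio (log axis) of each gene in hepatocyte-like droplets, per total UMI, per UMI of 13 hepatocyte reference genes and per UMI of Alb, with 95% counting intervals; the line at 1 marks equal values. Each scale shifts all genes alike; Saa1 and Saa2 are at 1.77 and 4.38 per total UMI, and Hpx runs from 0.358 per total UMI to 1.49 per UMI of Alb.

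The hepatocyte transcripts were also counted in lymphoid cells of the same libraries, as free RNA. The reference level of hepatocyte RNA in lymphoid cells was 149 per 10000 UMIs in the normal and 10.5 in the fibrotic liver, and 5 of the 8 genes were lower as well. Hpx went from 6.10 to 0.733 (ratio 0.120), Orm1 from 2.64 to 0.410 (0.156), Serpina3n from 0.225 to 0.040 (0.177) and Hp from 3.36 to 0.634 (0.188). Saa1 went from 0.357 to 0.195 (0.546, 0.393 to 0.748), while Saa2 went from 0.060 to 0.080 (1.33, 0.733 to 2.36). Orm2 had 10 and 4 UMIs. At a level of 1 or more in either liver 4 of the 8 genes could be compared, of which 3 (Hp, Hpx and Orm1) were 2-fold or more lower, against 7.74% of 2403 genes, and 1 was 2-fold or more higher, against 6.28%: Saa3, which entered only through its fibrotic level, just at the limit of 1. Per UMI of the 13 reference genes, which multiplies the ratio of every gene by 14.3, all 8 genes were above 1, at 1.71 for Hpx, 2.22 for Orm1, 2.53 for Serpina3n, 2.69 for Hp, 7.79 (5.60 to 10.7) for Saa1, 14.1 for Orm2, 19.0 for Saa2 and 735 for Saa3. Per UMI of Alb the ratio of Hpx was 1.07, that of Hp 1.67 and that of Saa1 4.85.

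Hp was also carried by neutrophils, which store haptoglobin in their granules. In the 191 normal neutrophil-like cells its level was 12.2 (11.3 to 13.1), with a UMI in 174 cells and a median of 13.2 over cells, against 3.36 in lymphoid cells. Measured against the reference genes, which gauge the free hepatocyte RNA, Hp was 3.04 (2.79 to 3.31) times the lymphoid value in normal neutrophil-like cells. This ratio does not subtract the free Hp RNA. In the fibrotic liver the level was 3.77 (3.25 to 4.35), a ratio of 0.309 (0.262 to 0.363), and the value over the reference was 5.11 (4.12 to 6.36). The fibrotic cells fell into 2 clusters, of 113 cells with an Hp level of 5.37 and 98 cells with a level of 2.11, so the lower level was present in both. Among the 8 genes, 4 could be compared in neutrophil-like cells. Hp, Hpx and Orm1 were 2-fold or more lower, against 9.41% of 2390 genes, while the reference level in these cells went from 178 to 12.2. Saa3 was 2-fold or more higher (0.017 to 1.74), against 13.2%, but it entered only through its fibrotic level and so had to be higher. The lymphoid Saa3 level moved from 0.019 to 1.0 beside it, and the fibrotic Saa3 value over the reference, 1.5 times the lymphoid value, was 0.943 without the 3 richest cells and 0.648 with erythroid-like cells as background. For Hpx and Orm1 the neutrophil-like levels of 7.03 and 3.20 in the normal liver stood near the lymphoid 6.10 and 2.64.

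The Olr1 cluster of the fibrotic liver carried Hp as well as Saa3. Its Hp level was 4.68 (4.29 to 5.09), with a UMI in 122 of 159 cells, and its value over the reference was 12.6 (10.5 to 15.1) times that of lymphoid cells. After thinning, Hp was seen in 27.7% (20.9 to 35.3) and Saa3 in 25.2% (18.6 to 32.6) of its cells, against 6.33% and 10.8% of lymphoid cells. In mesothelial-like cells Hp had a level of 0.715 in the normal and 0.790 in the fibrotic liver. The value of Hp over the reference was 0.650 (0.463 to 0.888) and 3.59 (2.84 to 4.55) times the lymphoid value there.

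Serpina3n was the member found in fibroblasts. In PF-like cells its level was 1.12 (0.803 to 1.53, from 40 UMIs) in the normal and 1.09 (0.917 to 1.29, from 141 UMIs) in the fibrotic liver. A UMI was found in 16 of 44 and 43 of 79 cells, at median depths of 7269.5 and 14226 UMIs. After thinning the shares were 11.4% (3.79 to 24.6) and 7.59% (2.84 to 15.8). The ratio was 0.969, with an interval of 0.678 to 1.41 that holds values on both sides of 1, and it was 1.6 without the 3 cells richest in Serpina3n of each liver (0.542 and 0.865). In the same libraries the lymphoid level was 0.225 and 0.040, so Serpina3n over the reference was 11.8 (8.11 to 16.9) times the lymphoid value in normal and 66.0 (34.8 to 141) times in fibrotic PF-like cells. Hp, a gene of the same response, was by contrast at 0.890 (0.647 to 1.2) and 1.12 (0.763 to 1.6) times the lymphoid value in these cells. Among normal PF-like cells 1 cell held 16 of the 40 Serpina3n UMIs. In HSC/MF-like cells, taken as the whole cluster, the level was 0.127 and 0.242, a ratio of 1.90 (1.19 to 3.22), and the value over the reference 1.46 and 13.8.

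In mesothelial-like cells Serpina3n appeared together with Saa3. It had 5 UMIs in the 45 normal cells (0.089, 0.029 to 0.208) and 247 UMIs in the 78 fibrotic ones (1.43, 1.26 to 1.63), with a UMI in 5 and 43 cells and a ratio of 16.1 (6.79 to 49.9). After thinning it was seen in 0 of 45 normal cells, which allows a share of cells with a UMI of up to 6.67%, and in 17.1% (9.43 to 27.5) of fibrotic ones. The order between the sub-clusters was the reverse of that of Saa3: the 30 cells of the less certain sub-cluster had 2.18 (185 UMIs in 23 cells, 64 of them in 1 cell), and the 48 cells rich in mesothelial markers had 0.709. Over the reference the fibrotic mesothelial-like cells stood at 103.7 (55.5 to 219) times the lymphoid value and the normal ones at 1.21 (0.388 to 2.90). Among the 8 genes, 3 could be compared in mesothelial-like cells; Saa3 and Serpina3n were 2-fold or more higher, against 15% of 2335 genes, and Hpx was 2-fold or more lower, against 12.1%. Saa3 and Serpina3n entered through their fibrotic levels only, and in the 48 marker-rich cells alone Serpina3n, at 0.709, would not have been compared. In PF-like cells 5 could be compared. Saa3, which entered through its fibrotic level only, was 2-fold or more higher, against 13.3% of 2254 genes. Hp, Hpx and Orm1 were 2-fold or more lower, against 12.5%. Without the 1 cell that held 172 of its 209 UMIs, Saa3 was at 0.292 there, below the level needed for the comparison, which ends that call. In both cell types the lower genes moved with the free hepatocyte RNA, whose reference level was 48.8 and 3.63 in mesothelial-like and 63.1 and 4.33 in PF-like cells.

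**Figure D4:**
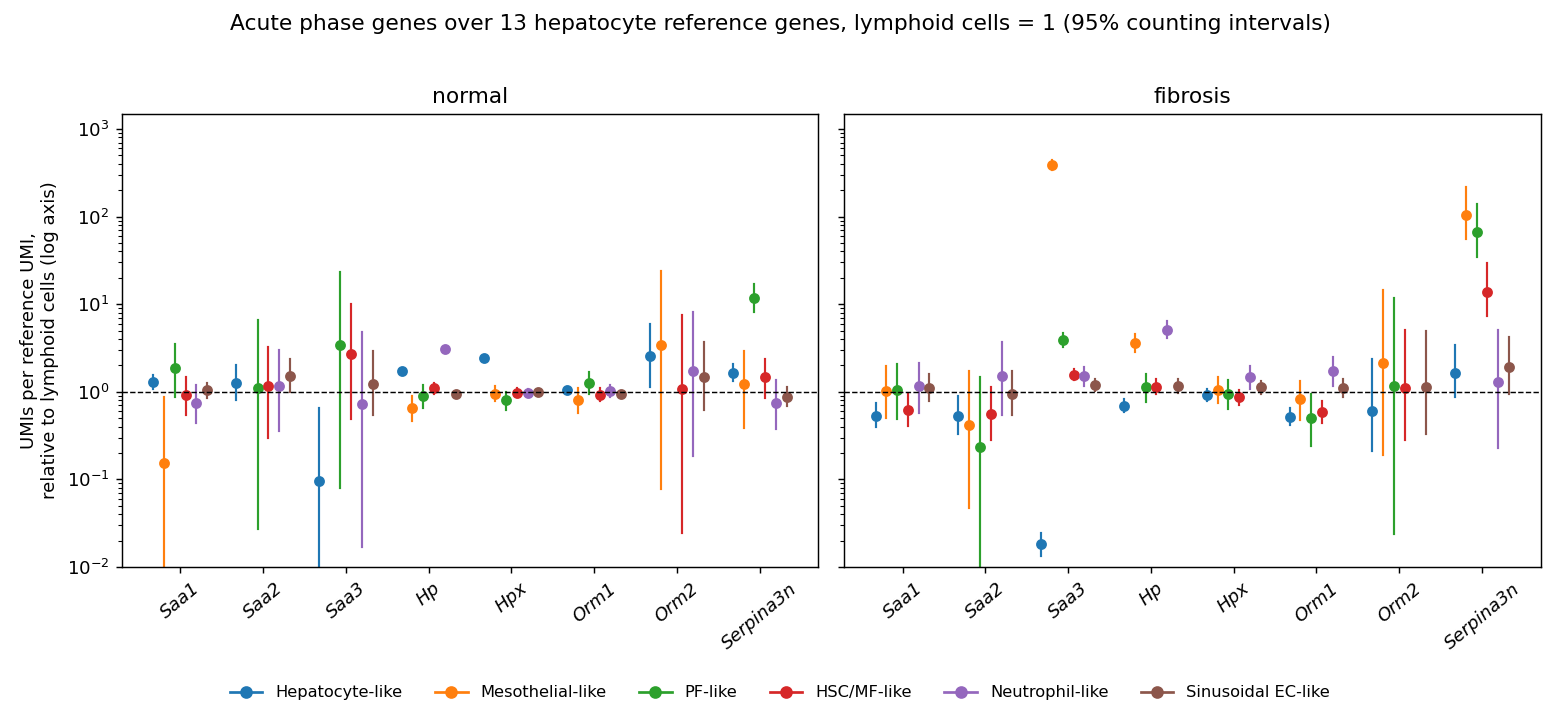
Value of Saa3, Hp and Serpina3n over the 13 hepatocyte reference genes, divided by the same value in lymphoid cells of the same library (log axis), per cell type and condition, with 95% counting intervals; the line at 1 marks the free RNA of lymphoid cells, values with 0 UMIs are not drawn and intervals are cut at 0.01. Saa3 reaches 385 in fibrotic mesothelial-like cells, Serpina3n 103.7 there and 66.0 in fibrotic PF-like cells, and Hp 3.04 and 5.11 in neutrophil-like cells.

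Of 34 other genes known to rise in the acute phase, 28 reached a level of 1 in hepatocyte-like droplets of either liver. Of these, 1 was 2-fold or more higher in fibrosis, against 44.5% of all genes: Lcn2 (lipocalin 2, which binds bacterial siderophores), from 0.147 to 2.10. Lcn2 reached a level of 1 in the fibrotic droplets only and so had to be higher. Of the 28, 18 were 2-fold or more lower, against 14.3% of all genes. Their median ratio was 0.386, against 1.79 over all genes compared. The 13 hepatocyte reference genes, which are not acute phase genes, were lower in the same droplets too: 6 (46.2%) were 2-fold or more lower and 1 (7.69%) was 2-fold or more higher, with a median of 0.555. The lower ones included the fibrinogen chains Fga (46.2 to 9.53), Fgb (81.9 to 13) and Fgg (59.8 to 9.96), and complement C3 (41.6 to 17.2). Of 10 genes known to fall in the acute phase, 9 could be compared and 3 were 2-fold or more lower (Alb, Fetub and Serpinc1), with a median ratio of 0.608. Of 15 receptors and clearance partners of these proteins, 6 could be compared and 2 were 2-fold or more higher, the scavenger receptor Cd36 and the macrophage protein Cd5l; both were also higher in lymphoid cells, at 0.925 and 3.49 for Cd36 and at 1.06 and 6.27 for Cd5l. Of 28 cytokines, receptors and factors that induce the response, 8 could be compared; Nfkbia, the NF-kB inhibitor, was 2-fold or more higher (12.5%, against 44.5% of all genes), and Cebpa, Il1rap, Lifr and Socs3 were 2-fold or more lower (50%, against 14.3%).

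In mesothelial-like cells 19 of the 34 other acute phase genes could be compared. Of these, 3 were 2-fold or more higher (15.8%, near the 15% of all genes) and 12 were 2-fold or more lower (63.2%, against 12.1%). The higher ones were Lcn2 (0.054 to 2.01, 37.6-fold, 12.8 to 183, with 3 normal UMIs), ceruloplasmin (Cp, a copper-carrying ferroxidase, 0.625 to 5.05) and the metalloreductase Steap4 (0.965 to 4.59), all 3 compared only because of their fibrotic level, and the lower ones included the fibrinogen chains and the Serpina1 genes, which are hepatocyte transcripts. C3 was high in both, at 121 and 139. Of the 28 inducing genes, 15 could be compared and 6 were 2-fold or more higher, but 5 of the 6, all except Nfkbia, reached a level of 1 in the fibrotic cells only and so had to be higher there; nothing is read from this count. These were the interleukin-1 receptor Il1r1 (0.143 to 2.32), the oncostatin M receptor Osmr (0.518 to 1.77), the NF-kB genes Nfkb1 (0.768 to 1.95) and Rela, the NF-kB inhibitor Nfkbia (1.89 to 9.39) and the STAT3 target Socs3 (0.518 to 1.10). The interleukin-6 receptor Il6ra was 2-fold or more lower (1.45 to 0.552). Nfkbia was higher in lymphoid cells too (2.80 to 7.20). In PF-like cells, 4 of 13 inducing genes were 2-fold or more higher (30.8%, against 13.3% of all genes): Lifr, Nfkbia, Nfkbiz and Osmr. Nfkbiz and Osmr (0.843 and 1.89) reached a level of 1 in the fibrotic cells only, and the Nfkbia ratio was 2.68 here and 2.57 in lymphoid cells. Among 18 acute phase genes compared, Steap4 was 2-fold or more higher (5.56%, against 13.3%), at 1.55 and 12.7. The lower ones numbered 11 (61.1%, against 12.5%), among them the fibrinogen chains and the Serpina1 genes. All 11 reference genes compared there (100%) were 2-fold or more lower too. C3, also among the lower acute phase genes, went from 37.9 to 6.44, beside 4.92 and 1.73 in lymphoid cells.

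Across 30 points, each 1 cell type in 1 liver, the genes most like 7 of the members were given by Pearson's r of log2 levels over 5673 genes. For 6 of them these were other genes of hepatocytes: Apoh for Hpx (r = 0.995), Serpina3k for Orm1 (0.987), Cyp7a1 for Saa2 (0.962), H2-Q10 for Hp (0.957), Serpina3m for Saa1 (0.957) and Apoa4 for Orm2 (0.924). Serpina3n, whose highest level was in hepatocyte-like droplets as well, was most like Angptl4 (0.894). The points of 1 liver share a library and its free RNA, and r is given as a description.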

How the data were processed

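Hepatic NPCs of 2 mice were profiled by 10x Genomics 3′ (v3) single-cell RNA-seq, 1 library per condition. The deposited tables hold UMI counts per gene and cell, which the authors made with Cell Ranger 3.0.1 on mm10 from reads mapped uniquely to exons, with no normalization. The study's methods exclude doublets with Scrublet; whether this preceded the deposit is not given in the sources used here. The cell number the study gives for the fibrotic liver equals the unfiltered barcodes. The members and gene lists were chosen with earlier results of these data known.

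The study's filter was applied, which keeps cells with under 10% mitochondrial UMIs and more than 200 detected genes. From 2000 variable genes, without 94 genes held out (the 8 members and the lists reported here), 10 principal components and 20 neighbours were computed per library and clustered by Leiden at a resolution of 0.8 (scanpy 1.11.5, leidenalg 0.10.2, Python 3.11.15). Mesenchymal clusters were pooled and clustered again. Cell names rest on fixed markers, but the rule that turns them into names (the highest mean log2 fold of a marker list, at least 3 markers raised) replaced an earlier one (most markers among the 10 leading genes) after the clusters were seen. A cluster far shallower than its library with none of the markers among its 10 leading genes stayed unnamed. Names may therefore differ from those of the study. Scrublet called 3 and 0 cells, and no doublets were removed. Whether so few calls came from an earlier removal or from a failure of the caller was not tested.

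Counts were summed per cell type. Levels carry exact Poisson intervals, ratios exact conditional intervals and shares Clopper-Pearson intervals (95%, scipy 1.17.1). UMIs of 1 library share their cells and mouse, so intervals are too narrow for a difference between mice. A count of 0 was read as up to 3 counts. Genes at 1 or more UMIs per 10000 in either liver were compared, with 2-fold as the call. Shares are given both as counted and thinned to 1000 UMIs per cell, which left out shallower cells; cell counts given alone are unthinned. The value over the reference is the ratio of a gene to the 13 hepatocyte reference genes. Named are the 8 members in cell types of at least 20 cells, list genes past 2-fold or with the 3 highest levels in a cell type (those with known roles given in full), and, of the 3 genes most like each member on log2(level + 0.1), the first; the gene for Saa3 is not reported here. The counting was checked on simulated counts. Alternatives covered the mitochondrial limit, cluster resolution, doublet scores, background cells, reference genes, level minimum and leaving out top cells.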

Additional observations from a re-analysis of the deposited data

Results flagged for a closer look

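Saa1 differed in direction between hepatocyte-like droplets, where the fibrosis over normal ratio per total UMI was 1.77, and lymphoid cells, where it was 0.546. The median ratio of all genes compared was 1.79 in the droplets and 1.18 in lymphoid cells. For Serpina3n the ratios were 1.40 and 0.177, but the former was 0.982 as mean UMIs per cell, so no direction was read from it. With 1 library per condition the difference was not tested in either case, and the free hepatocyte RNA reference in lymphoid cells moved from 149 to 10.5 beside it.

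The 305 fibrotic cells over the mitochondrial limit entered none of the comparisons above other than the alternative with no mitochondrial limit, and 6 members had a higher level there than in the 659 normal cells over the limit. These were Saa3 at 4.20 UMIs per 10000 (0.018 in the normal cells), Hp at 4.60 (3.48), Serpina3n at 0.718 (0.307), Saa1 at 0.524 (0.328), Saa2 at 0.189 (0.072) and Orm2, which had 3 UMIs in the fibrotic and 1 in the normal cells.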

How the results depend on the processing

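No paired analysis was possible because each condition has 1 library. Of 1567 alternative values for 218 results, 1277 stayed within the counting interval or within 1.5 times a count, 277 moved and 13 changed side; the cause was not tested. The Saa3 level in fibrotic mesothelial-like cells (133.7) was 178 with a 5% mitochondrial limit, 136.0 with whole-library cluster names, 111 without its 3 richest cells and 141 without the highest 5% of doublet scores. The Hpx ratio in hepatocyte-like droplets (0.358) was 0.384 with the lymphoid level subtracted, 0.251 as mean UMIs per cell, 0.467 at a 5% and 0.633 at no mitochondrial limit, 0.434 at resolution 1.5, 0.284 without the 3 richest cells and 0.596 with the shallow unnamed hepatocyte droplets added. The Saa1 ratio (1.77) was 1.24 as mean UMIs per cell, 3.02 at 5%, 2.52 at no limit, 2.10 at resolution 1.5 and 2.76 with those droplets. Serpina3n in PF-like cells was 0.865 (fibrotic) and 0.542 (normal) without its 3 richest cells, and the fibrotic value over the reference was 31.2 at 5%. Directions turned for the Hp ratio in hepatocyte-like droplets at no mitochondrial limit (1.07) and the Serpina3n ratio there as mean UMIs per cell (0.982). Values over the reference against lymphoid cells turned in hepatocyte-like droplets with Alb as reference for Hp (1.14 fibrotic, 0.754 normal), Saa1 (0.575 normal) and Serpina3n (0.725 normal), for Saa1 at 5% (0.988 normal) and for Orm2 with erythroid-like cells as background (0.914 normal). For Saa3 they turned in fibrotic neutrophil-like cells with the erythroid-like background (0.648) or without 3 cells (0.943), and in fibrotic PF-like cells at 5% (0.644), with whole-library names (0.765) or without 3 cells (0.630). With no minimum level, the genes 2-fold or more higher and lower numbered 4979 and 887 in hepatocyte-like droplets (884 and 284 with it), 2126 and 1801 in mesothelial-like (350 and 282), 1673 and 1824 in PF-like (300 and 282), 2419 and 1249 in neutrophil-like (316 and 225) and 2013 and 1446 in lymphoid cells (151 and 186). With 1 reference gene left out at a time, an alternative chosen after seeing the data, the per-reference ratios in hepatocyte-like droplets ran from 2.26 to 3.60 for Saa1, 0.776 to 1.24 for Hp, 0.774 to 1.23 for Orm1 and 0.458 to 0.728 for Hpx, lowest without Mup3. With 1 mouse per condition, depth limits only the counting error.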
